A study of Homo sapiens with 8 samples.

Results

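The imprinted genes of HepG2 cells were followed through overexpression of DNMT3A. A list of 36 known human imprinted genes was matched by gene symbol among the 58735 genes of the deposited table, and all 36 were found, low and silent ones included. IGF2 and H19 were left out of the list. The members lie in 16 clusters on 11 chromosomes. By textbook knowledge, 24 of them are expressed from the paternal copy, 9 from the maternal copy, and 3 (GNAS, GRB10 and BLCAP) from a copy that depends on the isoform or tissue.

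HepG2 is an established line of human hepatocellular carcinoma. The tested cells carried a lentivirus that overexpresses DNMT3A (library names pLV_EGFP_DN, genotype label DNMT3A overexpression) and gave 4 libraries, and the controls carried a control lentivirus (library names pLV_EGFP_NC, genotype label WT) and also gave 4. Both vector names include EGFP. The labels give neither the promoter of the transgene, nor the time after infection, nor whether clones were picked. RNA was captured by its poly(A) tail and sequenced. No label states whether replicate libraries stem from separate infections or dishes, so the p-values below describe spread between libraries that may be technical.

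Imprinted genes are transcribed mainly from a single parental copy, and methylation of CpG sites at imprinting control regions marks which copy that is. DNMT3A, a de novo DNA methyltransferase, sets many of these marks in the germ line, and the maintenance enzyme DNMT1 copies them at each cell division. Zinc finger proteins such as ZFP57 and ZNF445, together with TRIM28, keep the marks through early development, and several clusters are further controlled by long non-coding RNAs read from the unmethylated copy. In liver, many imprinted growth genes are abundant in the fetus and fall after birth, and some return in liver cancer. The libraries hold no information on which parental copy was read, and DNA methylation was not analysed here.

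The unit is FPKM, the fragments of a gene divided by its length and by a total set for each library, so levels can be compared between genes per length. The total implied by the values was 0.994 to 1.04 times the recovered reads of a library, and the scaling behind it is not given in the sources used here. Group values are given as mean ± SD (n = 4 each). A fold change is the DNMT3A mean minus the control mean of log2(FPKM + 1), with its standard error (SE), and understates the change of low genes. Adjusted p is limma's, over the 11620 genes with a mean of at least 1 FPKM, and a gene "rose" or "fell" where it was under 0.05. The libraries held 17232809 to 17626137 recovered reads with DNMT3A and 15911019 to 17677093 in controls. DNMT3A itself measured 9.75, 10.2, 8.51 and 7.26 FPKM in DNMT3A libraries 1 to 4 and 3.62, 3.89, 3.45 and 3.64 FPKM in control libraries 1 to 4 (log2 fold change 1.09, limma adjusted p = 0.000122). This value does not separate transcripts of the transgene from those of the cells' own gene. All 10 hepatocyte and HepG2 markers were above the FPKM filter, and their summed level was 9869 to 12644 FPKM with DNMT3A and 10341 to 11026 FPKM in controls. Of these, AFP (log2 1.61), TTR (log2 1.38) and FGB (log2 1.61) rose. None of 13 blood, endothelial and fibroblast markers passed the filter, PTPRC, CD3E, HBB and LUM were at 0, and their summed level was 2.41 to 3.30 FPKM with DNMT3A and 2.69 to 3.42 FPKM in controls. In bulk RNA a gene read in fewer cells and a gene read less in each cell cannot be told apart.

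CpG sites are what DNMT3A methylates, so their density at member promoters is shown first. RefSeq promoter windows of 300 bases (250 before the transcription start and 50 after it, GRCh38.p14) were found for 23 of the 36 members, 53 windows in all. The median window held 19 CpG sites for the members and 14 over all 34943 windows. The letters TGCCGC, which contain a CpG and are the core of the ZFP57 motif, were searched on both strands and found in 21 member windows (39.6%) and in 16.7% of all windows. Windows of the same gene can overlap, as those of MEG3 do, so the same site can count in more than 1 window. Member windows were also richer in CpG, and the part of that in the motif share was not tested. No window was found for PEG3 and DLK1, the 2 members that rose, nor for PEG10 and KCNQ1OT1, so these counts do not cover them. The windows below belong to the 2 members that fell and to MEG3, the silent partner of DLK1, and capitals mark the CpG sites.
GRB10 (chr7:50793404-50793703, minus strand, 44 CpG sites): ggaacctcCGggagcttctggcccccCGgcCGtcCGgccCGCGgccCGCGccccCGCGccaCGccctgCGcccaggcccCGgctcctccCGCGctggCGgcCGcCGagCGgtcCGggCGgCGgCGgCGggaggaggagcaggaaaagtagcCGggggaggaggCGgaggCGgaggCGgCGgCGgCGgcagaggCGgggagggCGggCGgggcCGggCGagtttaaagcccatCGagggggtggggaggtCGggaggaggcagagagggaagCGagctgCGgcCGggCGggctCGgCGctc
NAP1L5 (chr4:88697780-88698079, minus strand, 18 CpG sites): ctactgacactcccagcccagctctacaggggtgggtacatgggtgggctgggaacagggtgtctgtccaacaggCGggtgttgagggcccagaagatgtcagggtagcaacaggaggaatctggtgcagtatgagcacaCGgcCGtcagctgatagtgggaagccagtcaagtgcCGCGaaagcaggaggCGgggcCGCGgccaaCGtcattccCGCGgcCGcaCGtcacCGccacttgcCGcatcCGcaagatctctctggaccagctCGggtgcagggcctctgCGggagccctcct
MEG3 (chr14:100825858-100826157, plus strand, 19 CpG sites): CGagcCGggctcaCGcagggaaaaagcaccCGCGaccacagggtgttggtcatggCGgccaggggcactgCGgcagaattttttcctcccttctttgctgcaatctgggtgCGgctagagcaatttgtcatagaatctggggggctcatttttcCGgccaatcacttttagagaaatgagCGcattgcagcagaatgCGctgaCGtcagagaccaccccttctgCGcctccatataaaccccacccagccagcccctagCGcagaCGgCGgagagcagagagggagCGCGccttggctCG
The GRB10 window was 81% G and C and held 1 TGCCGC, the NAP1L5 window was 64% and held 2, and the MEG3 window was 59% and held 1. GRB10 has 5 such windows, with 3 to 49 CpG sites each, and MEG3 has 3, with 17 to 19. These counts describe the sequence and say nothing about the methylation of these cells.

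The 36 members fell into 3 tiers of level. There were 16 members with a mean of at least 1 FPKM, 12 below it with reads, and 8 without a read in any library. The 8 silent members were DIRAS3, HYMAI, MESTIT1, MEG3, MEG8, MAGEL2, NDN and MCTS2P. By class, 8 of 24 paternally expressed members, 5 of 9 maternally expressed members and all 3 isoform-dependent members passed the filter. At the upper end stood 3 paternally expressed genes: PEG10, PEG3 and DLK1. The spread of these levels between genes was far wider than any difference between the groups.

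**Figure D1:**
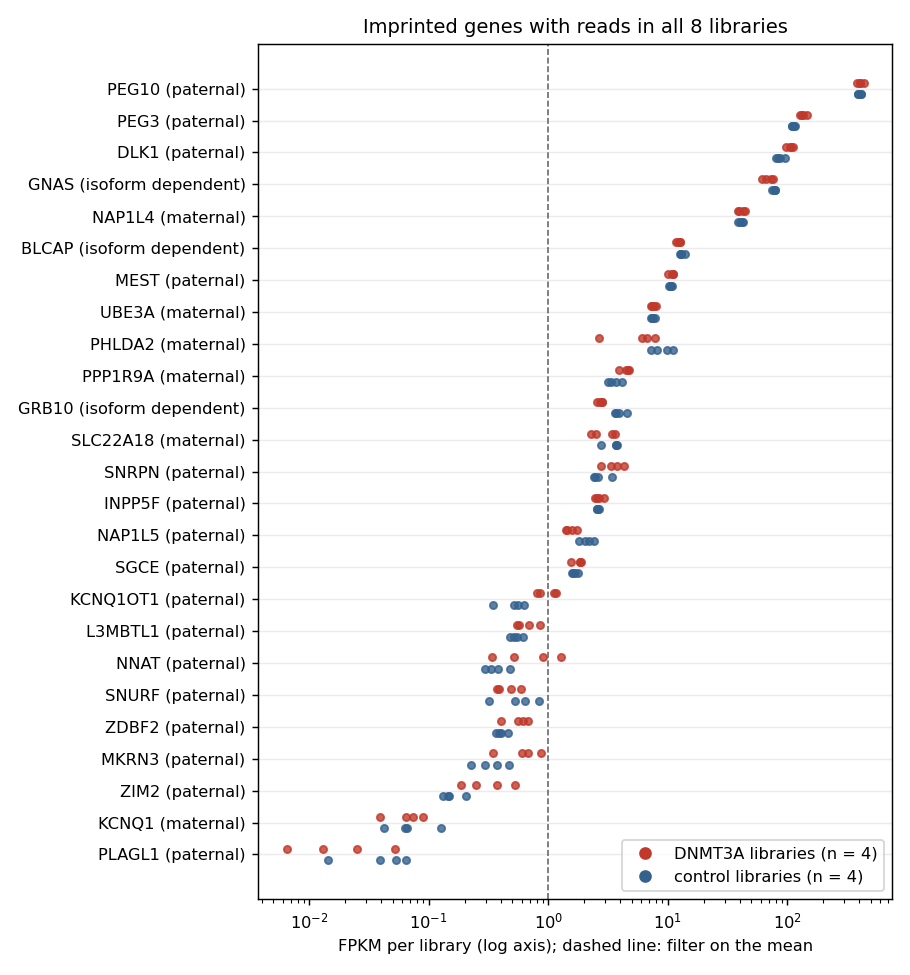
FPKM on a log axis of the 25 imprinted genes with reads in all 8 libraries, 1 point per library, DNMT3A libraries above control libraries in each row. PEG10 lies near 400 FPKM in both groups, and the points of the groups separate for PEG3, DLK1, BLCAP, GRB10, NAP1L5 and KCNQ1OT1.

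Of the 16 members tested, PEG3 and DLK1 rose, GRB10 and NAP1L5 fell, and 12 did not pass the test. That is 4 of 16 (25%), beside 20.6% of all tested genes, where 9.93% rose and 10.6% fell, so the share called among imprinted genes was near the background. The median log2 fold change was 0.01 over the members tested and -0.01 over all tested genes. The 4 changes were small, between a log2 of -0.40 and 0.28. With voom on the recovered reads, and with the values rescaled to plain library totals, 3 members rose and 1 fell (voom called 23.3% of all tested genes, 13.2% higher and 10.1% lower): PPP1R9A joined those that rose, and NAP1L5 lost its call.

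**Figure D2:**
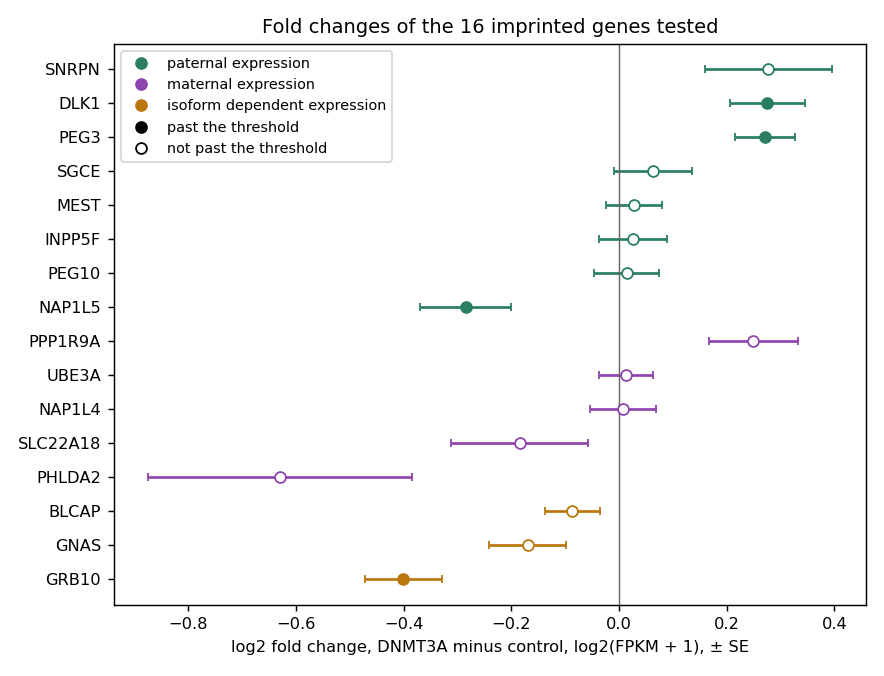
Log2 fold change (DNMT3A minus control) of the 16 imprinted genes tested, with its SE as bars, coloured by the expressed copy. Filled points passed the threshold (PEG3, DLK1, NAP1L5 and GRB10), and open points, PHLDA2 with the widest bar among them, did not.

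By the expressed copy, 2 of the 8 paternally expressed members tested rose and 1 fell, and their median log2 fold change was 0.05. None of the 5 maternally expressed members passed limma at an adjusted p of 0.05, and their median was 0.01. The classes are textbook assignments, and imprinting of some members, such as NAP1L4 and PPP1R9A, depends on the tissue. Which copy these cells read was not measured. Of the 3 isoform-dependent members 1 fell, and their median was -0.17. Each DNMT3A library was also set against the control mean. The median deviation of paternally expressed members was -0.01 to 0.12 in DNMT3A libraries and -0.04 to 0.04 in control libraries, and that of maternally expressed members was -0.06 to 0.03 in DNMT3A libraries and -0.12 to 0.07 in control libraries. The ranges overlapped in both of these classes. For the 3 isoform-dependent members it was -0.34 to -0.08 in DNMT3A libraries and -0.04 to 0.02 in control libraries, without overlap. This median rests on 3 genes, and the groups of GRB10 and BLCAP already did not overlap by themselves. Among all genes with a mean of at least 1 FPKM, 25.1% did not overlap. A difference between the classes was not tested.

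The abundant paternally expressed genes held their order. PEG10, a retrotransposon-derived growth gene of placenta and liver cancer (hg38 chromosome 7, 94656325 to 94669695, plus strand), measured 437, 384, 405 and 405 FPKM in DNMT3A libraries 1 to 4 and 390, 391, 418 and 417 FPKM in control libraries 1 to 4. The groups overlapped, with means of 408 ± 21.7 FPKM with DNMT3A and 404 ± 15.6 FPKM in controls (log2 0.01, SE 0.060, limma adjusted p = 0.891). The neighbour SGCE, a sarcoglycan that shares a divergent promoter region with PEG10, averaged 1.79 ± 0.151 FPKM with DNMT3A and 1.66 ± 0.0913 FPKM in controls (log2 0.06). PPP1R9A, the neurabin gene of the same cluster and maternally expressed in some tissues, measured 4.77, 3.89, 4.49 and 4.64 FPKM with DNMT3A and 3.17, 3.72, 3.34 and 4.13 FPKM in controls. Only DNMT3A library 2 lay within the control range. Its log2 fold change of 0.25 (SE 0.083) missed the threshold (limma adjusted p = 0.0599) and passed it with array weights, with voom, with plain library totals, without DNMT3A library 2 and without control library 4 (0.0151 to 0.0415).

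PEG3, a paternally expressed zinc finger gene (chromosome 19, 56810077 to 56840728, minus strand), rose. It measured 147, 129, 133 and 136 FPKM in DNMT3A libraries 1 to 4 and 111, 110, 114 and 116 FPKM in control libraries 1 to 4. Every DNMT3A library was above every control library, and the lowest DNMT3A value exceeded the highest control value by more than the whole spread of the controls. The means were 136 ± 7.72 FPKM with DNMT3A and 113 ± 2.67 FPKM in controls (log2 0.27, SE 0.056, limma adjusted p = 0.00935). ZIM2 shares 30652 bases of its span with PEG3 on the same strand, so reads of the pair could not be assigned with certainty. It had 72 reads with DNMT3A and 32 in controls, 0.185 to 0.525 FPKM against 0.133 to 0.205 FPKM (two-sided exact permutation p = 0.0571). Of 9 other tested genes starting within 500 kb of either gene, 0 passed limma's threshold. Their log2 fold changes ran from -0.18 to 0.45, with a median of 0.09.

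DLK1, a paternally expressed transmembrane protein of fetal liver and preadipocytes (chromosome 14, 100725705 to 100738224, plus strand), rose. It measured 105, 108, 113 and 97.5 FPKM in DNMT3A libraries 1 to 4 and 96.7, 81.0, 84.0 and 87.1 FPKM in control libraries 1 to 4. The groups did not overlap, but DNMT3A library 4 and control library 1 nearly met. The means were 106 ± 6.36 FPKM with DNMT3A and 87.2 ± 6.81 FPKM in controls (log2 0.28, SE 0.070, limma adjusted p = 0.0225). The call was lost without DNMT3A library 1 or 3, without control library 2 or 3 (0.0503 to 0.0690) and without the filter (0.0607). Over chromosome 14, 118 of 395 tested genes rose and 29 fell (37.2% called, median log2 0.10), and the part of this in the value of DLK1 was not tested.

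The other genes of the DLK1 cluster were silent or nearly so. MEG3 and MEG8, maternally expressed long RNAs, had 0 reads in each of the 8 libraries. For MEG3 a limit of 3 reads allows up to 0.00705 to 0.00816 FPKM per library, and for MEG8 up to 0.0147 to 0.0171 FPKM, for counting error only. RTL1, a retrotransposon-derived placental gene read against MEG8, had 6 reads with DNMT3A and 7 in controls, and DIO3, the thyroid hormone deiodinase at the far end, had 1 read with DNMT3A and 0 in controls. DLK1 thus stood above 80 FPKM beside partners under 0.05 FPKM in every library of both groups. Among 7 tested neighbours within 500 kb, WARS (log2 -0.32) and YY1 (log2 -0.17) fell and 0 rose. The call of YY1 was lost without any 1 of the 8 libraries (limma adjusted p = 0.0664 to 0.124).

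**Figure D3:**
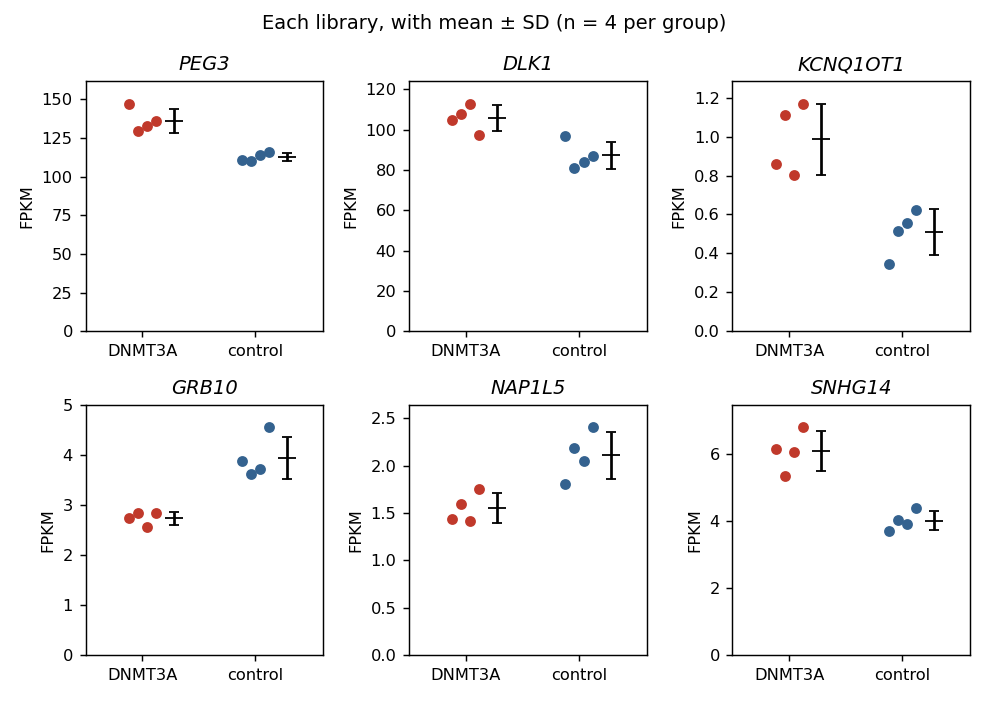
FPKM per library with mean ± SD (n = 4 per group), DNMT3A left of control, for PEG3, DLK1, KCNQ1OT1, GRB10, NAP1L5 and the non-coding RNA gene SNHG14. The groups do not overlap in any of the 6 panels: PEG3, DLK1, KCNQ1OT1 and SNHG14 are higher with DNMT3A, and GRB10 and NAP1L5 are lower.

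GRB10, an adaptor that binds the insulin and IGF1 receptors and dampens their signal, fell. The gene (chromosome 7, 50590063 to 50793462, minus strand) is read from a copy that depends on the isoform or tissue, and the copy read in these cells is not known. It measured 2.74, 2.83, 2.56 and 2.83 FPKM in DNMT3A libraries 1 to 4 and 3.88, 3.63, 3.72 and 4.55 FPKM in control libraries 1 to 4. All DNMT3A values lay below all control values, and they lay closer together. The means were 2.74 ± 0.131 FPKM with DNMT3A and 3.95 ± 0.417 FPKM in controls (log2 -0.40, SE 0.072, limma adjusted p = 0.00510). GRB10 was past the threshold in every alternative run, and so was PEG3. Of 3 tested neighbours within 500 kb, FIGNL1 fell (log2 -0.20, limma adjusted p = 0.0249) and 0 rose. FIGNL1 lost its call without DNMT3A library 1 or 3 or control library 2, 3 or 4, and with voom (adjusted p = 0.0512 to 0.0813). The neighbour DDC, imprinted in mouse heart, was at a log2 of -0.02 and did not pass.

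NAP1L5, a paternally expressed retrogene of the nucleosome assembly family, fell. It lies inside an intron of HERC3 (chromosome 4, 88695915 to 88697829, minus strand). It measured 1.44, 1.6, 1.41 and 1.75 FPKM in DNMT3A libraries 1 to 4 and 1.80, 2.18, 2.05 and 2.40 FPKM in control libraries 1 to 4. The groups did not overlap, but only narrowly, and the values rest on 210 reads with DNMT3A and 270 in controls. The means were 1.55 ± 0.158 FPKM with DNMT3A and 2.11 ± 0.251 FPKM in controls (log2 -0.28, SE 0.084, limma adjusted p = 0.0402). The call was lost without DNMT3A library 1, 2 or 3, without control library 2, 3 or 4, without the filter, with voom and with plain library totals (0.0526 to 0.108). The host HERC3, read on the other strand, was at a log2 of 0.07 (limma adjusted p = 0.563).

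Of the other listed host genes and overlapping partners tested, SNHG14 rose (described below), and HM13 and COPG2 did not pass. Nor did the members INPP5F and MEST. MCTS2P lies inside HM13 and had no read, while HM13 averaged 18.1 ± 0.954 FPKM with DNMT3A and 18.4 ± 0.449 FPKM in controls (log2 -0.03). INPP5F, an inositol phosphatase whose shorter variant is imprinted, averaged 2.67 ± 0.194 FPKM with DNMT3A and 2.60 ± 0.0457 FPKM in controls (log2 0.03). MEST, a paternally expressed hydrolase-like gene, averaged 10.8 ± 0.518 FPKM with DNMT3A and 10.6 ± 0.284 FPKM in controls (log2 0.03). These 3 differences lay within the spread between libraries. MESTIT1, antisense to MEST over 4863 bases, had no read, and COPG2 on the other side of MEST was at a log2 of -0.10 (limma adjusted p = 0.361).

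The 3 isoform-dependent members all had negative fold changes, and GRB10 alone passed limma on log2(FPKM + 1). GNAS, which encodes the stimulatory G protein alpha subunit and several imprinted alternative products, measured 66.3, 61.1, 76.2 and 73.3 FPKM in DNMT3A libraries 1 to 4 and 77.4, 79.3, 79.0 and 75.4 FPKM in control libraries 1 to 4. DNMT3A library 3 lay above control library 4, and the difference (log2 -0.17, SE 0.072) did not pass (limma adjusted p = 0.124). With voom it did not pass among the 11620 genes (adjusted p = 0.126) and passed in the fit of all genes with a read (log2 -0.15, adjusted p = 0.0369). The FPKM sums all products of the locus, so a shift between the imprinted and biallelic isoforms would not be seen. BLCAP, a small membrane protein lost in some bladder cancers, measured 11.8, 12.7, 12.2 and 12.6 FPKM with DNMT3A and 12.9, 13, 13.9 and 12.8 FPKM in controls. The groups did not overlap, yet the difference was small (log2 -0.09, limma adjusted p = 0.257). NNAT, the paternally expressed proteolipid gene nested in BLCAP on the other strand, had 72 reads with DNMT3A and 33 in controls, 0.342 to 1.27 FPKM against 0.299 to 0.480 FPKM (two-sided exact permutation p = 0.114).

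In the KCNQ1 cluster of chromosome 11 the long non-coding RNA was higher. KCNQ1OT1 is read antisense to KCNQ1 from the paternal copy, starting in a control region that is methylated on the maternal copy, and silences neighbouring genes in cis. It measured 0.859, 1.11, 0.801 and 1.17 FPKM in DNMT3A libraries 1 to 4 and 0.345, 0.515, 0.554 and 0.622 FPKM in control libraries 1 to 4. The groups were separate, and because the annotated transcript spans 91667 bases (chromosome 11, 2608328 to 2699994, minus strand) these low values rest on 6404 reads with DNMT3A and 3124 in controls. The means were 0.986 ± 0.183 FPKM with DNMT3A and 0.509 ± 0.118 FPKM in controls, under the filter of 1 FPKM. On the log2(FPKM + 1) scale the difference was 0.39 (two-sided exact permutation p = 0.0286, the lowest value this design can give). With the milder filter of 0.5 FPKM it passed limma (adjusted p = 0.0284, beside 17.7% of 13595 genes called and 8.78% called higher), and with no filter it did not (adjusted p = 0.0692, beside 5.24% called). Voom on the recovered reads of all genes gave a log2 fold change of 0.98 (adjusted p = 1.4e-05). With the milder filter the call was lost without DNMT3A library 2 or 4 or control library 1, 2 or 3 (limma adjusted p = 0.0581 to 0.0680).

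The library protocol names no step that marks strand, so reads of KCNQ1OT1 and unspliced reads of KCNQ1 over the same bases cannot be told apart. KCNQ1, a potassium channel subunit expressed from the maternal copy in early development, had 21 reads with DNMT3A and 22 in controls, 0.0388 to 0.0902 FPKM against 0.0426 to 0.127 FPKM. CDKN1C, the maternally expressed inhibitor of cyclin-dependent kinases, had 1 read with DNMT3A and 2 in controls. Both protein-coding genes nearest the non-coding RNA were therefore near 0 in both groups. Of other long nuclear RNAs on chromosome 11, MALAT1 averaged 12.8 ± 2.03 FPKM with DNMT3A and 8.87 ± 1.90 FPKM in controls (log2 0.49, limma adjusted p = 0.0413), and lost its call without DNMT3A library 2, 3 or 4 or control library 1, 2 or 3 (0.0532 to 0.0959). NEAT1 averaged 5.64 ± 1.38 FPKM with DNMT3A and 5.49 ± 1.25 FPKM in controls (log2 0.03). Among genes of at least 0.5 FPKM, 34 of 592 antisense RNAs rose and 22 fell (median log2 0.03), beside 1022 and 1085 of 10816 protein-coding genes (median log2 -0.01). Of 472 long intergenic RNAs 40 rose and 25 fell (median log2 0.01), and of 163 sense intronic RNAs 9 rose and 2 fell (median log2 0.06). These kinds of RNA were chosen after values were seen. The part of a shared shift of long or nuclear RNAs in the value of KCNQ1OT1 was not tested.

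The maternally expressed genes farther from KCNQ1OT1 did not pass the test. PHLDA2, a small pleckstrin homology domain protein that restrains placental growth, measured 6.06, 7.78, 6.69 and 2.68 FPKM in DNMT3A libraries 1 to 4 and 8.22, 11.2, 9.92 and 7.2 FPKM in control libraries 1 to 4. DNMT3A library 4 was far below the rest, and DNMT3A library 2 lay above control library 4. The means were 5.80 ± 2.20 FPKM with DNMT3A and 9.13 ± 1.77 FPKM in controls, the widest difference among the members tested (log2 -0.63, SE 0.245, limma adjusted p = 0.0982). It passed with array weights (0.0459) and with the replicate block (0.0181). SLC22A18, an organic cation transporter-like gene, measured 2.30, 3.66, 2.51 and 3.44 FPKM with DNMT3A and 2.76, 3.70, 3.79 and 3.71 FPKM in controls (log2 -0.18, limma adjusted p = 0.334). NAP1L4, a histone chaperone at the cluster's edge, averaged 41.3 ± 2.64 FPKM with DNMT3A and 41.0 ± 1.77 FPKM in controls (log2 0.01).

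The Prader-Willi and Angelman region of chromosome 15 is a cluster in which paternally expressed genes start from SNRPN and run into the long RNA SNHG14. The far end of SNHG14 is antisense to UBE3A, a ubiquitin ligase classed here as maternally expressed. SNRPN, a core protein of the spliceosome, measured 4.28, 3.34, 2.76 and 3.80 FPKM in DNMT3A libraries 1 to 4 and 2.48, 2.43, 2.61 and 3.44 FPKM in control libraries 1 to 4. Control library 4 lay within the DNMT3A range, and the difference did not pass (log2 0.28, SE 0.119, limma adjusted p = 0.128). SNURF, which shares 22865 bases and its transcripts with SNRPN, had 38 reads with DNMT3A and 46 in controls, and the split of reads between the pair is uncertain. UBE3A averaged 7.58 ± 0.286 FPKM with DNMT3A and 7.5 ± 0.221 FPKM in controls, a difference within the spread (log2 0.01, SE 0.051, limma adjusted p = 0.884).

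The upstream paternal genes of that region were low or silent. MKRN3, a ring finger protein that restrains the onset of puberty, had 0.599, 0.867, 0.682 and 0.347 FPKM in DNMT3A libraries 1 to 4 and 0.372, 0.294, 0.474 and 0.228 FPKM in control libraries 1 to 4, from 254 reads with DNMT3A and 129 in controls. Only DNMT3A library 4 lay within the control range (two-sided exact permutation p = 0.0857). MAGEL2 and NDN, both MAGE family genes, had no read.

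The transcript downstream of SNRPN was higher with DNMT3A. SNHG14 (24978583 to 25419462, plus strand), which is not among the 36, measured 6.14, 5.34, 6.07 and 6.8 FPKM in DNMT3A libraries 1 to 4 and 3.71, 4.03, 3.91 and 4.39 FPKM in control libraries 1 to 4. It rose without overlap, and the values rest on 18629 reads with DNMT3A and 11596 in controls (log2 0.50, SE 0.075, limma adjusted p = 0.00225), and kept its call in every alternative run. PWAR5, a non-coding RNA within its span, also rose, to 3.76 ± 0.328 FPKM with DNMT3A, against 2.03 ± 0.501 FPKM in controls (log2 0.66, limma adjusted p = 0.00371). PWAR6 averaged 12 ± 2.95 FPKM with DNMT3A and 8.56 ± 1.04 FPKM in controls (log2 0.42) and missed the threshold (limma adjusted p = 0.0669). In all, 6 of 12 tested neighbours in this region rose, 0 fell and their median log2 fold change was 0.57, beside 15.9% of 364 tested genes called on chromosome 15. Of the 12, 11 lie inside the span of SNHG14 and are not independent of it, and 6 are SNORD116 copies with 138 reads in all, of which 2 rose.

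ATP10A, a phospholipid flippase gene past UBE3A that has been reported as maternally expressed, was lower with DNMT3A. It was named after its values were seen. It measured 0.320, 0.253, 0.390 and 0.379 FPKM in DNMT3A libraries 1 to 4 and 1.67, 1.53, 1.16 and 1.54 FPKM in control libraries 1 to 4. The groups were far apart, with 199 reads with DNMT3A and 829 in controls, and the control mean was 4.40 times the DNMT3A mean. Its mean over the 8 libraries was below 1 FPKM, so it was tested only with the milder filter (log2 -0.89, SE 0.093, limma adjusted p = 0.000540), where it kept its call without each of the 8 libraries in turn (0.00119 to 0.00312).

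**Figure D4:**
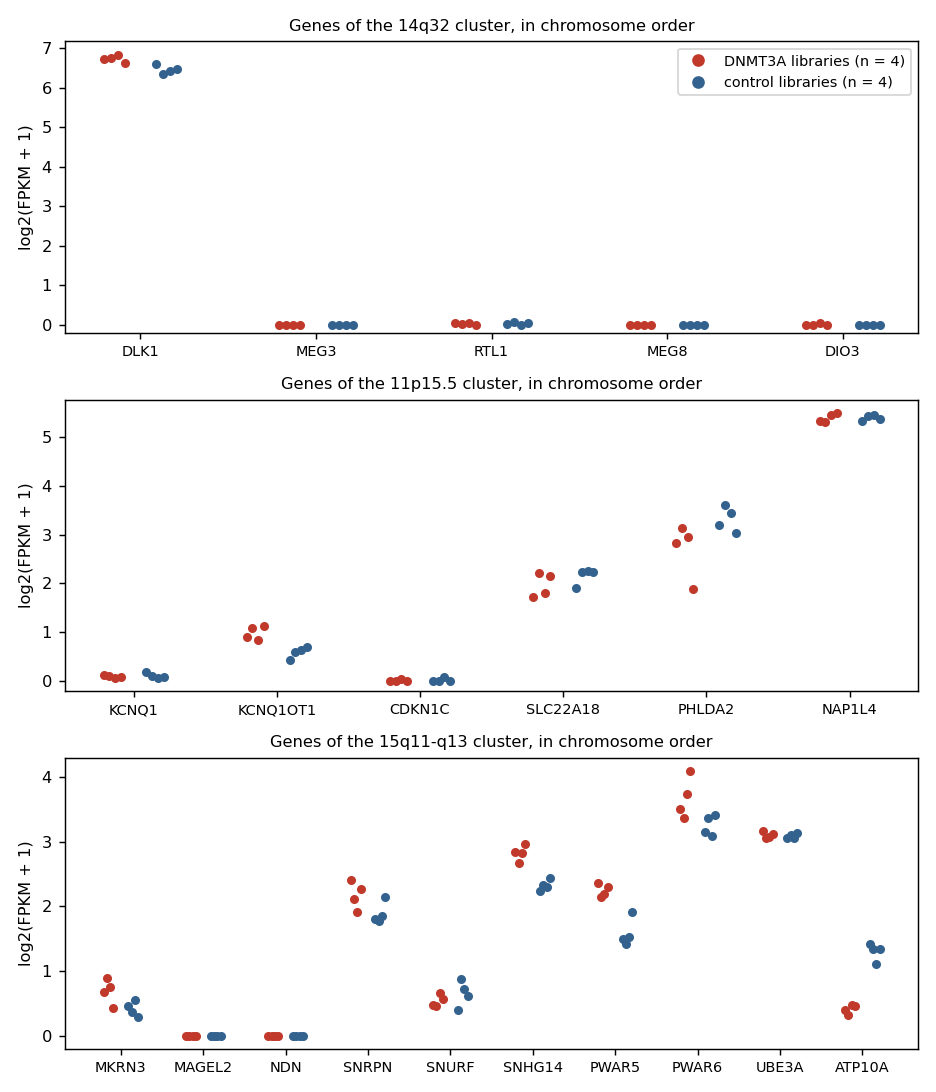
Log2(FPKM + 1) per library for genes of the DLK1, KCNQ1 and Prader-Willi clusters in chromosome order, DNMT3A libraries left of control libraries. DLK1 stands alone above silent partners, KCNQ1OT1 is higher with DNMT3A beside near-silent KCNQ1 and CDKN1C, and SNHG14 and PWAR5 are higher and ATP10A lower with DNMT3A while UBE3A overlaps.

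The remaining low members stayed below 1 FPKM. L3MBTL1, a polycomb-like chromatin reader, had 0.553 to 0.848 FPKM with DNMT3A and 0.480 to 0.617 FPKM in controls, from 731 reads with DNMT3A and 562 in controls. ZDBF2, a zinc finger gene, had 0.4 to 0.677 FPKM with DNMT3A and 0.362 to 0.458 FPKM in controls, from 433 reads with DNMT3A and 294 in controls. PLAGL1, a zinc finger growth suppressor, had 15 reads with DNMT3A and 25 in controls, HYMAI within it had none, and neither had DIRAS3, a RAS-like tumour suppressor. All of these groups overlapped. Over the 36 members, the groups did not overlap for 6, of which PEG3, DLK1 and KCNQ1OT1 were higher and GRB10, NAP1L5 and BLCAP lower with DNMT3A. For 5 of these the mean was at least 1 FPKM, where 25.1% of genes did not overlap (12.1% higher and 13% lower). Among genes with reads below 1 FPKM, 5.22% did not overlap and 2.89% were higher.

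Among genes whose proteins set and keep imprints, most did not pass the test. Of 40 listed genes 28 were tested, of which 6 rose and 2 fell, and 20 did not pass (median log2 -0.01), beside 9.93% of all tested genes that rose and 10.6% that fell. The 6 include DNMT3A itself (log2 1.09), the gene that the vector overexpresses, so its rise is no result about this list. TET1, which oxidises methylcytosine, rose to 5.58 ± 0.588 FPKM with DNMT3A, against 3.96 ± 0.413 FPKM in controls (log2 0.41, limma adjusted p = 0.00856). ARID4B (log2 0.52, limma adjusted p = 0.00177) and ARID4A (log2 0.44, limma adjusted p = 0.00944), chromatin proteins needed for the Prader-Willi imprint in mouse, also rose. ARID4A lies on chromosome 14, where 118 of 395 tested genes rose and 29 fell (median log2 0.10), and the part of this in its value was not tested. ZNF445, which recognises methylated imprinting control regions, had a log2 fold change of 0.24 (limma adjusted p = 0.0463), and UHRF2, a ring finger protein that binds modified cytosine, one of 0.30 (limma adjusted p = 0.0321). CTCF, the insulator protein that binds unmethylated control regions, fell to 7.65 ± 0.490 FPKM with DNMT3A, against 9.40 ± 0.3 FPKM in controls (log2 -0.27, limma adjusted p = 0.0107). CBX5, heterochromatin protein HP1 alpha, fell by 0.32 on the log2 scale (limma adjusted p = 0.0249). The highest of those not past were TRIM28 (log2 -0.10), CBX3 (log2 -0.25) and CBX1 (log2 -0.13), and ZFP57 and DPPA3 were among 6 with no read. ZNF445 held its call without control library 4 and lost it without any other library (0.0679 to 0.108), UHRF2 lost it without DNMT3A library 3 or 4 or control library 1, 2 or 3 (0.0581 to 0.0823), and CBX5 without DNMT3A library 3 or control library 2, 3 or 4 (0.0541 to 0.0717).

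A further list held other genes reported as imprinted in some human tissue. Of 59 listed, 20 were tested: SNHG14 rose, 7 fell and 12 did not pass, beside 9.93% of all tested genes that rose and 10.6% that fell. The median log2 fold change of the 20 was -0.10, and that of all tested genes was -0.01. CRYBG1, a crystallin-like gene, fell to 3.35 ± 0.385 FPKM with DNMT3A, against 6.55 ± 0.508 FPKM in controls (log2 -0.80, limma adjusted p = 0.000226). The cytosolic retinol-binding gene RBP5 fell by 0.38 on the log2 scale (limma adjusted p = 0.0132). NDUFA4 (log2 -0.26), a subunit associated with cytochrome oxidase, RB1 (log2 -0.25), the retinoblastoma tumour suppressor, SGK2 (log2 -0.25), a serum-regulated kinase, and SLC22A3 (log2 -0.17), an organic cation transporter, fell less, as did TRAPPC9 (log2 -0.26), a trafficking subunit. NDUFA4 lost its call without DNMT3A library 3 or control library 1, 2 or 3, RB1 without DNMT3A library 3 or any control library, and SGK2 without DNMT3A library 1, 3 or 4 or control library 1, 2 or 3. TRAPPC9 lost it without any library other than DNMT3A library 2, and SLC22A3 without any of the 8 (limma adjusted p = 0.0501 to 0.127 over these). RB1 lies on chromosome 13, where 66 of 199 tested genes fell and 9 rose (median log2 -0.15), and the part of this in its value was not tested. Imprinting of many genes on this list is known only from particular tissues or is disputed.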

How the data were processed

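Poly(A) RNA of 8 HepG2 libraries was sequenced. Per the submitters' processing notes, alignment used HISAT2 2.0.5 and build hg38. How reads were counted is not given in the sources used here. Per the file headers, the authors deposited FPKM per gene in 1 column per library, with gene lengths in bases. All 58735 genes had the coordinates of GENCODE release 29. FPKM times length gave whole multiples of 1 step for 100% of values (tolerance 0.01 read), from which reads were recovered. FPKM depends on the total set for a library. Where that is a plain read total, a change in abundant genes shifts all others. The deposited values carry equal median-ratio factors (1.00663) in all 8 libraries, which plain totals would not be bound to give.

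Groups came from the titles. Genes with a mean of at least 1 FPKM were compared on log2(FPKM + 1) with limma 3.58.1 (R 4.3.3, intensity trend), with Benjamini-Hochberg adjustment over all 11620 and a threshold of 0.05. Single values below the filter were tested by exact permutation (two-sided, 70 assignments). Intervals and floors (3 reads) cover counting error only. The limma step was tested on simulated data. No 2 libraries agreed within sampling noise (chi-square per degree of freedom 4.58 to 35.2). The members, lists and tests were chosen with earlier results of these data known. Genes that could be named were the members, list genes past the threshold, up to 3 others per list with the highest mean, hosts, and neighbours (starts within 500 kb of a member's start) past the threshold. MALAT1, NEAT1, PWAR6, UBE3A's neighbour ATP10A and the list genes DDC, DPPA3 and ZFP57 were named after values were seen. Alternatives were another pseudocount, other filters, scalings, variance settings, a replicate block and leaving out each library, with voom on recovered reads and plain library totals added after seeing the data.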

Additional observations from a re-analysis of the deposited data

Results flagged for a closer look

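Of 95 groups of 4 libraries examined (members with reads and a part of the other named genes), 4 held a library set apart from the other 3. About 1 in 20 groups of normally spread values would be marked this way without any cause. That rate does not hold for CDKN1C and DIO3, where 1 or 2 reads stand beside libraries at 0. SLC22A18 measured 2.76 FPKM in control library 1 and 3.70 to 3.79 FPKM in the other control libraries. CDKN1C measured 0.0232 FPKM in DNMT3A library 3 and 0.0510 FPKM in control library 3, and 0 in the others, from 3 reads in all. DIO3 measured 0.0274 FPKM in DNMT3A library 3, from 1 read, and 0 in the others.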

How the results depend on the processing

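Over all tested genes 2389 passed; the count was 3756 with array weights and 1508 to 2443 when 1 library was left out. Among the members 4 passed, 7 with array weights (PPP1R9A, PHLDA2 and SLC22A18 were added), 2 without a filter, and 2 to 4 when 1 library was left out. The medians of the paternally and maternally expressed members moved by less than their spread under each alternative, and no named gene reversed its direction among those that passed. Same-numbered libraries did not deviate together (correlations 0.16, -0.08, -0.02 and 0.10), so the numbers were not taken as pairs. With the replicate block 1881 genes and 4 members passed: NAP1L5 was lost (limma adjusted p = 0.0505) and PHLDA2 gained. The block also ended the calls of CBX5, ZNF445, NDUFA4, TRAPPC9, SLC22A3, YY1 and FIGNL1. A pseudocount of 0.1 enlarges differences of low genes by construction: the log2 difference was 0.84 for KCNQ1OT1 and -1.86 for ATP10A. Among single genes, 124 values in all lost a call, 8 gained one, and 894 were marked as the same. For genes below the filter that mark refers to the log2 difference and not to a call. Another 12 values, all of genes below the filter and all with the pseudocount of 0.1, were marked as moved. Median-ratio scaling changed no call, since the deposited values already carry equal factors. Depth limits the members below 0.1 FPKM, which rest on 43 reads or fewer each.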

Other observations

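Genes near the 36 members changed at a rate close to the background. Of 93 other tested genes starting within 500 kb of a member, 13 rose and 11 fell (25.8%, beside 20.6% of all tested genes), and the median log2 fold change was -0.01. SRSF6, a splicing factor next to L3MBTL1, fell to 53.7 ± 2.69 FPKM with DNMT3A, against 96.7 ± 8.37 FPKM in controls (log2 -0.83, limma adjusted p = 0.000110). BAG3, an HSP70 co-chaperone beside INPP5F, rose to 17.7 ± 2.08 FPKM with DNMT3A, against 11.8 ± 0.329 FPKM in controls (log2 0.54, limma adjusted p = 0.00197), while INPP5F itself did not pass.

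Around NAP1L5, 3 of 6 tested neighbours rose and 1 fell, beside 19.5% of 416 tested genes called on chromosome 4. PPM1K, a mitochondrial phosphatase of branched-chain amino acid breakdown, rose to 1.86 ± 0.236 FPKM with DNMT3A, against 0.926 ± 0.0535 FPKM in controls (log2 0.57, limma adjusted p = 0.00207). FAM13A, a RhoGAP domain gene, had a log2 fold change of 0.44 (limma adjusted p = 0.00954), and ABCG2, a drug efflux pump, one of 0.27 (limma adjusted p = 0.0191), though ABCG2 lost its call without DNMT3A library 1 or control library 2 or 3 (0.0503 to 0.0546). PYURF fell by 0.37 on the log2 scale (limma adjusted p = 0.00435).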
